A study of Homo sapiens with 4 samples.

Results

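The genes described are 8 apolipoprotein genes (APOA1, APOA2, APOB, APOC1, APOC3, APOE, APOH and APOM) and MTTP, the gene of the microsomal triglyceride transfer protein. They were taken by name, and all 9 were found among the 59652 genes of the count table. Total RNA of Huh7 and PLC cells was sequenced after 48 h in medium with glucose at 5 mM (low) or at 25 mM (high). Huh7 and PLC (PLC/PRF/5) are established wild-type cell lines from human hepatocellular carcinoma, and the glucose was added to glucose-free DMEM with fetal bovine serum in every group. The study asked which genes, long non-coding RNAs above all, follow the glucose concentration. Each cell line at each concentration gave 1 library, so no value has a replicate, and a difference between the lines or the concentrations cannot be told apart from a difference between single cultures.

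Hepatocytes secrete very-low-density lipoprotein, a particle of triglyceride and cholesterol ester wrapped in phospholipid and held by APOB. MTTP loads lipid onto APOB in the endoplasmic reticulum, and APOB that stays without lipid is degraded. APOA1 and APOA2 are the main proteins of high-density lipoprotein (HDL), while APOE, APOC1 and APOC3 move between particles and steer lipolysis and uptake. Liver transcription factors such as HNF4A, FOXA2 and CEBPA are known activators of many of these genes.

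The libraries held between 16049686 (PLC cells, 25 mM) and 30279716 (PLC cells, 5 mM) counted reads. FPKM, the number of reads scaled to exon length and library total, was calculated from the counts and compares levels between genes per length. Of the 9 hepatocyte or liver tumour markers, all had reads in both Huh7 libraries, and TTR alone had 0 reads in 1 library, that of PLC cells at 25 mM. Their summed FPKM was 4625 and 4869 for Huh7 against 887 and 1778 for PLC cells, at 5 and 25 mM. The lists for other cells had lower sums, from 0.716 to 6.94 for 5 fibroblast markers, 0.122 to 2.55 for 3 endothelial markers, 0.730 to 4.89 for 4 leukocyte markers and 3.86 to 26.4 for 4 intestinal markers. The hepatocyte, fibroblast, endothelial, leukocyte and intestinal sums were all higher in Huh7 than in PLC cells at the same glucose concentration, and their part in the differences below was not tested. Each library came from a bulk culture of 1 established cell line and not from a tissue of several cell types. Within such a culture, fewer cells with an RNA and less of it per cell cannot be told apart. LUM led the fibroblast sum in Huh7 cells, with 360 and 434 reads against 0 and 0. COL3A1 was called higher in PLC cells instead, with 37 and 62 reads in Huh7 against 137 and 141 (adjusted p = 0.00341 from edgeR). Of the hepatocyte list, 7 genes were called higher in Huh7 cells, where 21.8% of all genes tested were called higher and 21.1% lower. KRT18 was called higher in PLC cells (adjusted p = 0.0153 from edgeR), and KRT8 was not called. Within the lists PTPRC, which defines leukocytes, and CD3E, which defines T cells among them, had at most 5 and 0 reads. CDH5 and VWF, which define endothelium, had at most 2 reads each. PECAM1 made up nearly the whole endothelial sum, with 392 and 593 reads for Huh7 against 27 and 36 for PLC cells, and CD14 the leukocyte sum, with 148 and 240 against 34 and 78 reads. Both were called higher in Huh7 cells, with adjusted p-values of 7.29e-06 and 0.0124 from edgeR. FABP2 and SI, which define enterocytes, had at most 12 and 20 reads, whereas VIL1 and CDX2, also on the intestinal list, had 20.3 and 2.57 FPKM in Huh7 cells at 5 mM.

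For 6 of the 9 genes (APOA2, APOC1, APOE, APOH, APOM and MTTP), RefSeq gives promoter windows on GRCh38.p14 that run from 250 bases before to 50 bases after a transcription start. APOA1, APOB and APOC3 have no entry in the windows used. The 9 windows of the 6 genes were searched on both strands for 9 motifs of promoters and liver transcription factors. These were AGGTCA (half-site of nuclear receptors), CAAAGTCCA (HNF4-type), a direct repeat of the half-site with 1 base between, TGTTTNC (FOXA-type), GTTAAT (HNF1-type half-site), TTGCNNAA (C/EBP-type), TATAAA of the TATA box, the box CCAAT and lastly the GC box GGGCGG. The direct repeat was searched with any base at the fourth place of each half-site, so it need not hold AGGTCA itself. The 3 stretches of 30 bases shown next come from genes that were higher in Huh7 cells and hold a motif of a liver transcription factor within 50 bases before the start, written 5′ to 3′ on the strand of the gene with the motif in capitals.
APOA2, chr1:161223652-161223681 on the minus strand: acagggggtggGTAAACAgacaggtatata
APOH, chr17:66229447-66229476 on the minus strand: caccagaaaatgGTTAATgtttaagcgctt
MTTP, chr4:99574762-99574791 on the plus strand: gagtttggagtcTGACCTttccccaaagat
The capitals mark the FOXA-type letters in APOA2 and the half-site in MTTP, both as the reverse complement, and the HNF1-type half-site in APOH. The stretch of APOA2 lies outside the gene as annotated in the count table, that of APOH in an intron, and that of MTTP, which precedes the second of its listed starts, in an exon. Such letters are common. Of the 35116 windows in RefSeq, 18.0% hold TGTTTNC, 6.88% GTTAAT and 13.8% AGGTCA. FOXA-type letters also lie in the windows of MTTP and APOM, and none of the 9 windows holds CAAAGTCCA (0.384% of all windows), the direct repeat (0.310%) or TTGCNNAA (10.5%). TATAAA lies in 1 of the 9 windows (11.5% of all windows), CCAAT in 3 (34.6%) and GGGCGG in 3 (45%). The match is a description of letters and not of a site in use.

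Of these 9 genes, 8 were higher in Huh7 than in PLC cells at both glucose concentrations, and APOM was lower. With 0.1 added to both FPKM values, the ratio of the lines was at least 22.0 for MTTP, APOA2 and APOA1 at either concentration, and at most 7.0001 for APOB, APOC1, APOC3, APOE and APOH. The lines were compared by the quasi-likelihood test of edgeR over all 4 libraries with the glucose concentration as a block. All 9 genes passed an adjusted p of 0.05, with 8 higher in Huh7 cells and 1 lower. Of the 23217 genes tested, 21.8% were called higher and 21.1% lower in Huh7 cells, and of the protein-coding genes 24.8% and 25.2%, so that such a call is frequent between these lines. The thresholds of the study, FPKM above 0.5 with ratios above 1.5 or below 0.67, were applied here with the minimum met in at least 1 of the 2 libraries. By these 8 of the 9 genes were likewise higher and 1 lower at either concentration. With the minimum in both libraries 7 were higher at either concentration, since MTTP was under it in PLC cells, and with a ratio over 2 there were 7 at 25 mM, without APOH. By the thresholds of the study 35.7% of all genes were higher and 31.1% lower at 5 mM (protein-coding 30.3% and 30.6%). At 25 mM these shares were 32.0% and 33.0% (protein-coding 27.4% and 30.5%). The shares of all genes under the 2 alternatives were not calculated. The median log2 difference (Huh7 minus PLC) was 2.24 for the 9 genes and 0.03 for all genes tested. The test has 1 residual degree of freedom, and edgeR draws the spread of each gene towards that of the other genes. Its p-values thus rest in part on other genes, and measure only the spread that is left between these libraries.

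**Figure D1:**
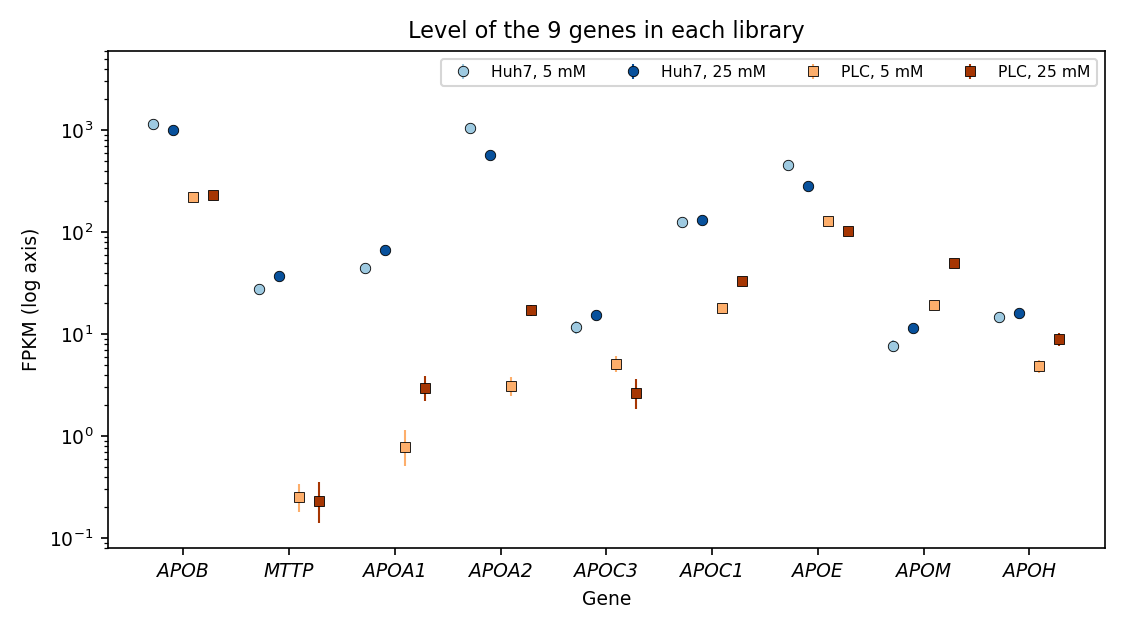
FPKM (log axis) of the 9 genes in the 4 libraries, with circles for Huh7 and squares for PLC cells, light for 5 mM and dark for 25 mM glucose. Bars are 95% exact Poisson intervals of the count, which cover counting error only. The circles lie above the squares for 8 genes and below them for APOM.

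APOB, the structural protein of very-low-density and low-density lipoprotein, lies on chromosome 2 from 21001429 to 21044073 (hg38, minus strand). Huh7 cells gave 359665 reads at 5 mM and 449567 at 25 mM glucose, or 1.68% and 1.49% of all counted reads. PLC cells gave 98682 and 54882 reads, or 0.326% and 0.342%. In FPKM this is 1135 and 1008 for Huh7 and 219.8 and 231 for PLC cells. The 2 Huh7 libraries were higher than both PLC libraries, and APOB had the highest FPKM of the 9 genes in all 4 libraries. Its log2 difference between the lines was 2.24 (standard error 0.15, adjusted p = 8.71e-08 from edgeR).

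MTTP, on chromosome 4 from 99563761 to 99623999 (plus strand), gave, at 5 and then 25 mM, 3194 and 5957 reads for Huh7 cells, whereas PLC cells gave 41 and 20. This was 27.7 and 36.7 FPKM for Huh7 against 0.251 and 0.231 FPKM for PLC cells, the latter under the level of 0.5 that the study used as a minimum. MTTP was the lowest of the 9 genes in both PLC libraries. Without an added constant the ratio of Huh7 to PLC cells was 110.4 (95% interval 81.2 to 154) at 5 mM and 159 (103 to 260.3) at 25 mM, and with 0.1 added to both FPKM values it was 79.2 and 111. All intervals of ratios are given without an added constant. The log2 difference between the lines was 7.01 (standard error 0.32, adjusted p = 4.11e-09 from edgeR), and 5.06% of the protein-coding genes tested had a larger one in either direction. FPKM of APOB was 41.0 and 27.5 times that of MTTP for Huh7 cells at 5 and 25 mM, but 876 and 999 times for PLC cells.

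APOA2 and APOA1, the HDL proteins, had the largest differences between the lines of the 8 apolipoproteins. APOA2, on chromosome 1 from 161222292 to 161223631 (minus strand), gave, at 5 and then 25 mM, 21290 and 16203 reads for Huh7 cells, whereas PLC cells gave 88 and 260. The FPKM values were 1054 and 569.9 against 3.08 and 17.1. APOA2 was second to APOB in Huh7 cells and ranked 7 and 5 of 9 in PLC cells. Its ratio of Huh7 to PLC cells was 332 at 5 mM (278 to 427) and 33.1 at 25 mM (29.4 to 37.7), and these intervals do not overlap. The log2 difference over both concentrations was 6.66 (standard error 0.63, adjusted p = 2.14e-06 from edgeR). APOA1, on chromosome 11 from 116835751 to 116837622 (minus strand), activates the enzyme that esterifies HDL cholesterol. Huh7 cells gave 1035 and 2209 reads and PLC cells 26 and 52, or 44.2 and 66.99 FPKM against 0.783 and 2.96 FPKM. Its log2 difference was 5.10 (standard error 0.37, adjusted p = 1.72e-07 from edgeR).

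APOE, APOC1, APOC3 and APOH differed less than APOA2 and APOA1. APOE, the ligand of receptors that clear remnant particles, had 451 and 283 FPKM for Huh7 against 128 and 102 FPKM for PLC cells (20758, 18336, 8339 and 3511 reads). Both Huh7 libraries were higher, with a log2 difference of 1.64 (standard error 0.20, adjusted p = 2.01e-05 from edgeR). APOC1, which inhibits cholesteryl ester transfer protein, had 126 and 131 FPKM against 17.9 and 32.7 FPKM (3307, 4857, 666 and 647 reads). APOC3, an inhibitor of lipoprotein lipase, had 11.6 and 15.4 FPKM against 5.12 and 2.64 FPKM (211, 393, 132 and 36 reads). Their log2 differences were 2.40 (standard error 0.26) and 1.81 (standard error 0.41), with adjusted p-values of 6.74e-06 and 0.00294 from edgeR. APOH, a phospholipid-binding plasma protein on chromosome 17 from 66212033 to 66256525 (minus strand), had 14.7 and 15.996 FPKM against 4.83 and 8.89 FPKM (419, 641, 195 and 190 reads). It had the smallest log2 difference of the 9 genes, 1.22 (standard error 0.31, adjusted p = 0.00662 from edgeR), and 35.0% of the protein-coding genes tested had a larger one in either direction.

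APOM, a lipocalin of HDL that carries sphingosine phosphate, was the exception. It lies on chromosome 6 from 31652416 to 31658210 (plus strand) and gave, at 5 and then 25 mM, 202 and 425 reads for Huh7 cells, whereas PLC cells gave 728 and 995. The FPKM values were 7.64 and 11.4 for Huh7 against 19.4 and 50.1 for PLC cells, so both PLC libraries were higher. The ratio of PLC to Huh7 cells was 2.52 (2.17 to 2.99) at 5 mM and 4.36 (3.91 to 4.93) at 25 mM. The log2 difference (Huh7 minus PLC) was -1.75 (standard error 0.29, adjusted p = 0.000298 from edgeR). By exon length as in the table, APOM ranked last of the 9 genes in both Huh7 libraries and 3 in both PLC libraries. By the length of the canonical transcript it ranked 8 in Huh7 cells at 25 mM and 4 in PLC cells at 5 mM, and was unchanged in the other libraries.

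**Figure D2:**
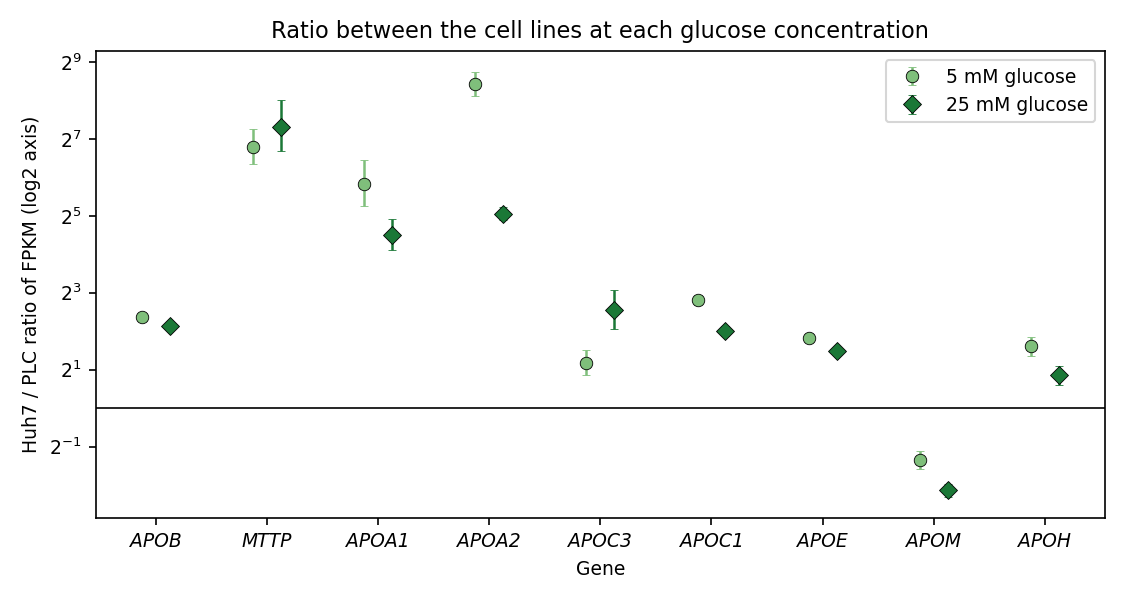
Ratio of FPKM in Huh7 to PLC cells (log2 axis, no constant added) of the 9 genes at 5 mM (circles) and 25 mM glucose (diamonds), with 1 library for each line and concentration. Bars are 95% exact binomial intervals that cover counting error only, and the line marks a ratio of 1. APOA2 has ratios far apart at the 2 concentrations, and APOM alone lies below 1.

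The order of the levels was APOB, APOA2, APOE, APOC1, APOA1, MTTP, APOH, APOC3 and APOM in Huh7 cells at both concentrations, where the counting intervals of APOH and APOC3 overlapped at 25 mM. In PLC cells at 5 mM it was APOB, APOE, APOM, APOC1, APOC3, APOH, APOA2, APOA1 and MTTP. There the intervals of APOM and APOC1 and those of APOC3 and APOH overlapped. At 25 mM APOA2 was above APOH, and APOC3 came after APOA1 with overlapping intervals. The length in the table covers all annotated exons of a gene, and was longer than the canonical transcript for all 9 genes. With the length of the canonical transcript in GENCODE release 44 in its place (474 against 945 bases for APOA2), APOA2 passed APOB in both Huh7 libraries, with 2101 against 1191.5 FPKM at 5 mM and 1136 against 1058 FPKM at 25 mM. In PLC cells at 5 mM APOE then passed APOB, with 236 against 231 FPKM, APOC1 passed APOM and APOA2 passed APOH. APOC3 passed APOH in both Huh7 libraries and APOA1 in PLC cells at 25 mM, and APOM passed APOH in Huh7 cells at 25 mM. Together the 9 genes held 1.92% and 1.66% of the Huh7 reads against 0.3596% and 0.378% of the PLC reads, and between 87.7% and 90.6% of these were reads of APOB.

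To see what the glucose concentration changed, FPKM at 25 mM was divided by FPKM at 5 mM for either line, with 0.1 added to both, and the same thresholds were used. In Huh7 cells APOA1 was past the thresholds upwards and APOA2 and APOE downwards. In PLC cells APOA1, APOA2, APOC1, APOH and APOM were past them upwards and APOC3 downwards. In Huh7 cells 1 gene was thus higher and 2 were lower, where 5.91% of 11684 protein-coding genes were higher and 5.71% lower (14.1% and 13.7% of all genes over the minimum). In PLC cells 5 were higher and 1 lower, where 18.8% of 11686 protein-coding genes were higher and 11.5% lower (26.2% and 17.0% of all genes). The median ratio of the 9 genes was 1.09 in Huh7 and 1.82 in PLC cells, and that of the protein-coding genes was 1.03 and 1.05. Scaling the libraries by the TMM method of edgeR moves every log2 ratio by -0.04 in Huh7 and -0.12 in PLC cells. With it APOA1 in Huh7 cells, at 1.47, was no longer past the threshold.

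APOA1 passed the upper threshold in either line, and 4.91% of 10601 protein-coding genes passed with 1 direction in both (9.12% of all genes over the minimum in both lines). Its ratio was 1.52 (95% interval 1.41 to 1.63) for Huh7 and 3.46 (2.31 to 6.295) for PLC cells, the latter from 26 and 52 reads. APOM had a ratio of 1.49 (1.26 to 1.78) in Huh7 cells, just under the threshold, whereas PLC cells gave 2.57 (2.34 to 2.84). APOE had lower values at 25 mM in both lines, with ratios of 0.628 (0.615 to 0.6402) and 0.794 (0.763 to 0.826).

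APOA2 and APOC3 had ratios on opposite sides of 1 in the lines, with intervals that did not include 1. The ratio of APOA2 was 0.541 (0.5298 to 0.552) for Huh7 but 5.43 (4.36 to 7.18) for PLC cells. It was past the thresholds in opposite directions, which 0.849% of the protein-coding genes were (5.19% of all genes). The difference of its log2 ratios (PLC minus Huh7) was 3.33, and 0.0755% of the protein-coding genes over the minimum in both lines had a larger one in either direction. At 25 mM APOA2 was still 33.1 times as high in Huh7 as in PLC cells. The ratio of APOC3 was 1.32 (1.12 to 1.57) for Huh7 but 0.524 (0.346 to 0.749) for PLC cells, where 132 and 36 reads lay behind it. The difference of its log2 ratios was -1.33. No residual degree of freedom is left to test such differences between the lines.

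APOC1 and APOH were past the threshold in PLC but not in Huh7 cells. The ratios of APOC1 were 1.04 (0.998 to 1.09) in Huh7 and 1.83 (1.64 to 2.05) in PLC cells, and those of APOH were 1.09 (0.9596 to 1.23) and 1.82 (1.497 to 2.26). In Huh7 cells both intervals included 1. Of the pair that builds very-low-density lipoprotein, APOB was within the thresholds in both lines and MTTP in Huh7 cells, whereas MTTP was under the FPKM minimum in PLC cells and could not be called there. APOB had ratios of 0.888 (0.884 to 0.892) in Huh7 and 1.05 (1.04 to 1.06) in PLC cells, and the latter turned to 0.965 with TMM scaling. The ratio of MTTP was 1.32 (1.27 to 1.38) for Huh7 and 0.943 (0.511 to 1.61) for PLC cells, where the interval from 41 and 20 reads reached past both thresholds.

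**Figure D3:**
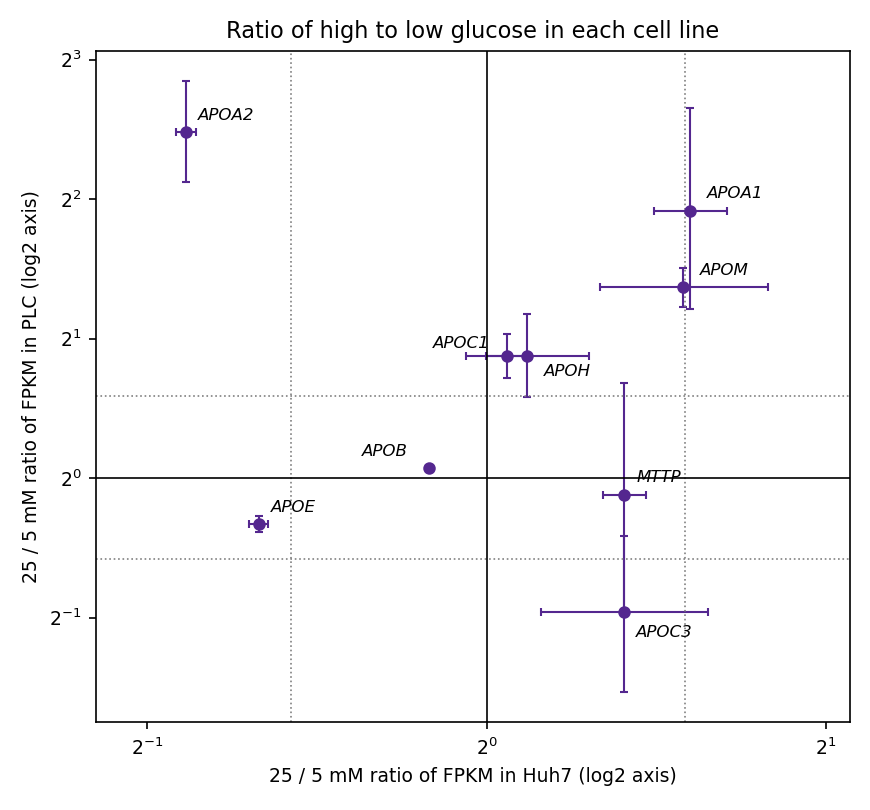
Ratio of FPKM at 25 mM to 5 mM glucose in Huh7 cells (horizontal log2 axis) and PLC cells (vertical log2 axis) for the 9 genes, without an added constant and with 1 library per condition. Bars are 95% exact binomial intervals for counting error only, solid lines mark a ratio of 1 and dotted lines mark 0.67 and 1.5. APOA2 lies alone at the upper left (0.541 in Huh7 and 5.43 in PLC cells with 0.1 added), APOA1 and APOM at the upper right, and APOC3 and MTTP to the lower right.

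The glucose change shared by both lines was tested in the same edgeR fit, with the cell line as a block. After adjustment 0 of the 9 genes passed, where 0.0646% of the genes tested were called higher and 0.314% lower at 25 mM (protein-coding 0.108% and 0.474%), and 0 passed with DESeq2 or limma. Without adjustment 3 passed, where 8.51% of all genes did. These were APOM, with a log2 change (25 mM minus 5 mM) of 0.90 (standard error 0.28, adjusted p = 0.268 from edgeR), APOA1 with 1.02 (standard error 0.33, adjusted p = 0.282 from edgeR) and APOE with -0.58 (standard error 0.19, adjusted p = 0.308 from edgeR). APOM and APOA1 were higher in 2 of 2 lines and APOE lower in 2 of 2. In the fit, opposite changes such as that of APOA2 (log2 change 0.56, standard error 0.54) count as spread.

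Several of the 9 genes are neighbours. APOC3 (chromosome 11 from 116829706 to 116833072, plus strand) and APOA1 end 2678 bases apart and point towards each other, and APOE (chromosome 19 from 44905791 to 44909393, plus strand) and APOC1 (44914247 to 44919349, plus strand) are 4853 bases apart. The glucose ratios of neighbours lay on opposite sides of 1 in PLC cells. APOA1 had a ratio of 3.46 where APOC3 had 0.524, and APOC1 had 1.83 where APOE had 0.794. APOA4, the gene next to APOC3, gave 8 and 26 reads for Huh7 and 4 and 4 for PLC cells. TOMM40, the mitochondrial import gene next to APOE, had between 46.7 and 59.7 FPKM in all 4 libraries and a log2 difference between the lines of -0.21 (standard error 0.21, adjusted p = 0.468 from edgeR). Beside APOM, BAG6 had 35.5 and 31.9 FPKM in Huh7 and 49.1 and 45.5 FPKM in PLC cells (adjusted p = 0.0668 from edgeR), and C6orf47 had 3.28 and 3.26 against 5.34 and 10.6 FPKM. C6orf47, whose end lies 88 bases from that of APOM on the opposite strand, was also higher in PLC cells and had a glucose ratio of 1.97 there, against 0.993 in Huh7 cells (line log2 difference -1.21, standard error 0.33, adjusted p = 0.00931 from edgeR). PRRC2A, 14645 bases from APOM, was higher in Huh7 cells instead, with 54.6 and 58.03 against 27.4 and 22.98 FPKM (line log2 difference 1.16, standard error 0.21, adjusted p = 0.000544 from edgeR).

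Whether the counting used the strand is not given in the sources used here, and reads in shared exons cannot be assigned with certainty. BAG6 shares 136 exon bases with APOM on the opposite strand, APOA1-AS shares 123 with APOA1, and AC010872.1 shares 169 with APOB. In the last case the antisense gene followed APOB, with 9.36 and 8.62 FPKM in Huh7 and 1.91 and 2.40 FPKM in PLC cells. APOA1-AS did not follow APOA1 between the lines (log2 difference 0.53, standard error 0.58, adjusted p = 0.498 from edgeR). It had 28 and 59 reads in Huh7 cells. In PLC cells it had 41 and 14 reads, where APOA1 had 26 and 52. AC083902.1 shares 83 bases with MTTP on the opposite strand and had 9 and 20 reads in Huh7 and 0 in both PLC libraries. AC011481.3 shares 532 bases with APOC1 on the same strand and had 14 to 47 reads.

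Of 15 listed genes of lipoprotein assembly and export, the partners of APOB and MTTP, 13 were tested, of which 2 were higher in Huh7 and 4 in PLC cells, where 21.8% of all genes tested were called higher and 21.1% lower in Huh7 cells. Their median log2 difference was -0.18. PLA2G12B, which helps to load lipid onto APOB particles, gave 128 and 295 reads for Huh7 but 0 and 6 for PLC cells, so that at 5 mM Huh7 cells were higher by at least 60.4-fold. The largest of the calls towards PLC cells was P4HB, the protein disulfide isomerase that forms a dimer with MTTP, with 85.2 and 85.4 FPKM in Huh7 and 143 and 151 FPKM in PLC cells (log2 difference -0.79, standard error 0.19, adjusted p = 0.00418 from edgeR). VMP1, TMEM41B and SORT1 were also higher in PLC cells, with log2 differences of -0.60, -0.64 and -0.73. No gene of the list was called for glucose, where 0.0646% of all genes tested were called higher and 0.314% lower at high glucose. Without adjustment 0 of the 13 tested genes passed, where 8.51% of all genes tested did. With so few genes in the list, these counts do not set it apart from all genes.

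Of 15 other apolipoproteins 7 were tested, with 2 higher in each line, where 21.8% of all genes tested were called higher and 21.1% lower in Huh7 cells. Most had few reads, and 3 (APOC4, APOL3 and APOL4) had 0 in every library. CLU, the clusterin of HDL, had between 78.3 and 99.9 FPKM in all 4 libraries (adjusted p = 0.344 between the lines from edgeR). APOA5, an activator of lipoprotein lipase, gave 18 and 25 reads for Huh7 and 4 and 2 for PLC cells. APOL6 had 2.12 and 1.09 FPKM in Huh7 and 0.413 and 0.0681 FPKM in PLC cells. APOO and APOOL, mitochondrial proteins named after the family, were higher in PLC cells. APOO had 7.54 and 6.71 FPKM against 14.5 and 16.6 FPKM. APOOL had 0 reads in both Huh7 libraries against 2465 and 1210 in PLC cells, at least 580-fold and 756-fold higher when calculated against 3 reads per library.

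Next come receptors and enzymes that act on secreted lipoproteins, for which the same shares of all genes, 21.8% higher and 21.1% lower in Huh7 cells, are the background. Of 8 genes of receptors and uptake, 4 were higher in Huh7 cells and 0 in PLC cells. LRP1, a receptor of remnants, had 35.1 and 34.1 FPKM against 2.95 and 3.10 FPKM, and LRP8 and MYLIP were also higher in Huh7 cells. VLDLR was the gene of this list called for glucose, lower at 25 mM in both lines, with 1.85 and 0.609 FPKM in Huh7 and 2.53 and 0.644 FPKM in PLC cells (log2 change -1.86, standard error 0.32, adjusted p = 0.0245 from edgeR). For glucose the background was 0.0646% of all genes tested called higher and 0.314% lower at 25 mM. Of 12 genes of remodelling and efflux, 9 were tested, 5 were higher in Huh7 and 2 in PLC cells. ABCA1, which hands cholesterol to APOA1, had 36.3 and 33.9 FPKM in Huh7 against 2.68 and 3.16 FPKM in PLC cells, and PLTP had 12.8 and 11.1 against 0.923 and 0.539 FPKM. LCAT, the enzyme that APOA1 activates, had 4.08 and 3.596 against 1.80 and 1.61 FPKM. LIPC, the hepatic lipase, went the other way with 4.38 and 6.55 against 13.7 and 22.1 FPKM (log2 difference -1.71, standard error 0.24, adjusted p = 7.57e-05 from edgeR).

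Of 21 transcription factors and coregulators known to act on apolipoprotein genes, 11 were higher in Huh7 and 3 in PLC cells, where 21.8% of all genes tested were called higher and 21.1% lower in Huh7 cells. The 3 higher in PLC cells, outside the naming rule and named after their values were seen, were NR0B2, PPARGC1A and PPARA, with log2 differences of -3.20, -1.81 and -1.41. HNF4A itself did not pass the test, with 28.99 and 31.1 FPKM in Huh7 and 35.02 and 38.5 FPKM in PLC cells (log2 difference -0.30, standard error 0.20, adjusted p = 0.263 from edgeR). NR2F2, which can repress such genes, had 15.8 and 24.9 against 11.3 and 21.6 FPKM (adjusted p = 0.229 from edgeR). By contrast CEBPA had 68.5 and 75.9 FPKM in Huh7 and 3.54 and 3.02 FPKM in PLC cells (log2 difference 4.45, standard error 0.27, adjusted p = 3.39e-08 from edgeR). NR1H4, the bile acid receptor, had 5397 and 9247 reads against 5 and 0 reads. FOXA2, named after its values were seen, had 2237 and 3022 reads against 4 and 0 reads, while its relative FOXA1 had 34.8 and 34.4 against 15.8 and 29.5 FPKM. SREBF1 and the glucose-responsive factor MLXIPL were higher in Huh7 cells, the latter with 7.40 and 5.53 FPKM against 0.261 and 0.569 FPKM. CREB3L3, an activator of APOA4 and APOC2 among others, had 4.84 and 6.74 FPKM in Huh7 and 0.923 and 4.0 FPKM in PLC cells. CEBPB was the regulator called for glucose, lower at 25 mM in both lines, with 64.7 and 29.3 FPKM in Huh7 and 113 and 37.7 FPKM in PLC cells (log2 change -1.44, standard error 0.23, adjusted p = 0.0192 from edgeR). Of all genes tested 0.0646% were called higher and 0.314% lower at 25 mM.

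**Figure D4:**
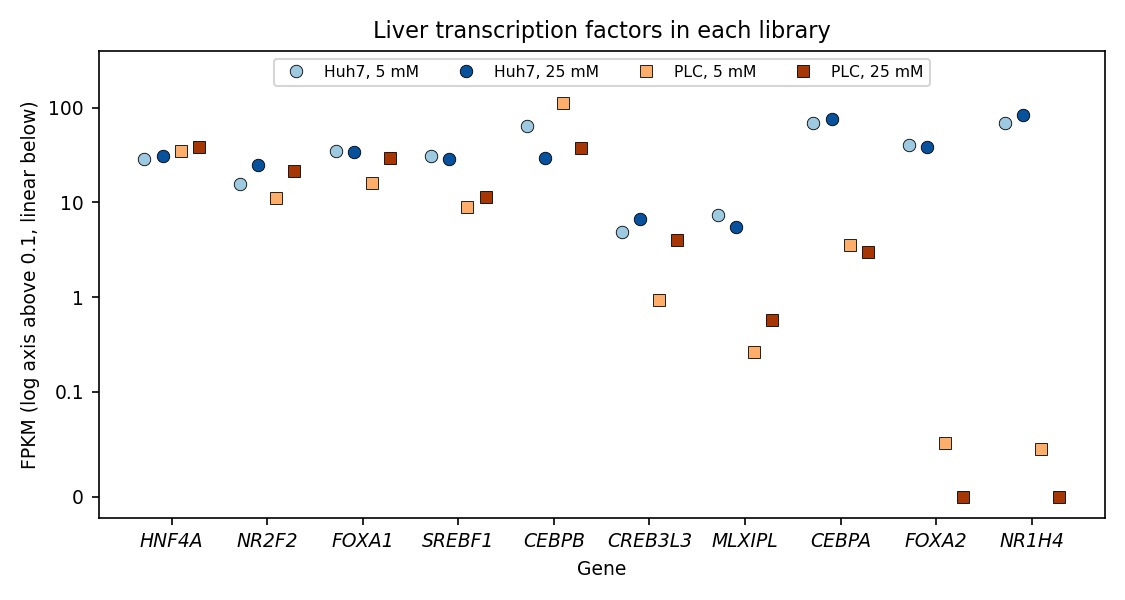
FPKM of 10 of the 21 listed regulators in the 4 libraries (axis logarithmic above 0.1 and linear below), with circles for Huh7 and squares for PLC cells, light for 5 mM and dark for 25 mM glucose. The 3 called higher in PLC cells (NR0B2, PPARGC1A and PPARA) are not shown, and FOXA2 was added after its values were seen. HNF4A lies between 28.99 and 38.5 in all libraries, while CEBPA, FOXA2 and NR1H4 are far lower in PLC cells.

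The genes with the pattern most like those of APOB, APOA1 and MTTP were sought among 7521 genes whose mean FPKM exceeded 5 and whose reads reached 100 in 1 library or more. Likeness was the root mean square difference of log2(FPKM + 0.1), centred on each gene, over the 4 libraries. For APOB they were PPDPF (0.05), PFKM (0.08) and GLTPD2 (0.08). For APOA1 they were SERPINA5 (0.23), NAALAD2 (0.25) and SERPIND1 (0.32). For MTTP they were CECR2 (0.07), DSG2 (0.16) and SLC22A9 (0.18), each with at most 8 reads in a PLC library. Among the 9 genes themselves, APOB and APOC1 were most alike (0.305) and APOA2 and APOM least (4.27). With 4 points that share their libraries and depth, such values are a description.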

How the data were processed

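Total RNA depleted of rRNA was sequenced as directional libraries, 1 for each of 2 cell lines at each of 2 glucose concentrations. The authors deposited counts, the whole number of reads per gene without normalization, and per the labels HISAT2 and featureCounts were used on hg38. Versions, annotation release and treatment of shared reads are not given in the sources used here. Libraries were mapped to conditions by the column names and the labels. Of 59657 lines, 5 from a broken entry were left out. Gene spans in the table equal those of GENCODE release 44 for 8 of the 9 genes, and gene classes were matched by symbol for 38133 genes.

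FPKM was calculated from count, exon length and library total. Intervals of ratios are exact Clopper-Pearson and those of levels exact Poisson intervals (95%), for counting error only, and the floor is 3 reads. edgeR 4.0.16 (filterByExpr, TMM, quasi-likelihood test, Benjamini-Hochberg over all genes tested) was fitted on counts with line and glucose as terms, DESeq2 1.42.0 and limma 3.58.1 as alternatives. The code was tested on simulated data. The members and lists were chosen with earlier results of these data known. From each list at most 5 genes are named, those past an adjusted p of 0.05 and then those of highest FPKM, with HNF4A, CEBPA, NR2F2, CREB3L3 and MLXIPL in any case, further the genes within 20 kb of a member that bear on a result and the 3 nearest patterns. Some genes of the lists are counted but not reported here by name.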

Additional observations from a re-analysis of the deposited data

Results flagged for a closer look

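For 3 of the 9 genes the ratio of 25 to 5 mM glucose lay on opposite sides of 1 in the 2 lines, with counting intervals that excluded 1 in both. The share of all genes that meet this was not calculated, and at the read numbers of APOB such intervals are narrow. Only APOA2 was past the thresholds in opposite directions, as were 0.849% of the protein-coding genes (5.19% of all genes). With 1 library per condition, no test of these differences was possible and none was made. The ratio of APOA2 was 0.541 for Huh7 but 5.43 for PLC cells, the latter from 88 and 260 reads. That of APOC3 was 1.32 for Huh7 but 0.524 for PLC cells. That of APOB was 0.888 for Huh7 but 1.05 for PLC cells, and TMM scaling turned the latter to 0.965, on the same side of 1 as the former.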

How the results depend on the processing

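The calls between the lines held for all 9 genes under RLE and total scaling, no filter, at least 10 reads in every library, DESeq2, limma-voom and no glucose block, with adjusted p-values of at most 0.0307. Under the same alternatives 0 members were called for a shared glucose change. For glucose within Huh7 cells, 0 members were higher with TMM scaling, DESeq2 size factors or a ratio over 2, and 0 were lower with a ratio under 0.5, for which the thresholds themselves are the cause. In PLC cells a ratio over 2 left 3 higher and a ratio under 0.5 left 0 lower. The shares of all genes past these alternative thresholds were not calculated for either line. APOB in PLC cells turned to 0.965 with TMM scaling and 0.957 with DESeq2 size factors. The shared log2 change of APOA2 turned to -0.31 with limma-voom and -0.89 without the line block, and that of APOC3 to 0.049 without the block. The cause was not tested.

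Over all genes, 15 were higher and 73 lower at 25 mM. The counts were 0 and 19 with total scaling, 242 and 284 without a filter, 0 and 27 with at least 10 reads in every library, 63 and 131 with DESeq2, and 0 and 0 without the block. For the lines, Huh7 cells had 5072 genes higher and 4897 lower, but 3169 and 3171 with at least 10 reads in every library, where fewer genes are tested. The length of the canonical transcript was added after the data were seen. No replicate could be left out. The libraries were paired by cell line through the block, and no pairing by replicate number could be made because each condition had 1 library and the labels carry no such numbers.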
